A study of Homo sapiens with 6 samples.

Results

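The proteasome genes examined here were those whose probe set carries exactly 1 gene symbol starting with PSMA, PSMB, PSMC, PSMD, PSME, PSMF or PSMG and a number, without PSMC3IP. This rule gave 46 of 18417 named genes, on 52 probe sets, and the probe set with the highest mean level stood for each gene. Of the 46, 45 encode subunits, activators, inhibitors or assembly chaperones, and PSME3IP1 encodes a protein that interacts with PSME3. PSMC5, PSMD7 and PSMD13 were not analysed here. PSMA8 and PSMB11, core subunits restricted to testis and thymus, lay below the filter on low signal in all 6 arrays (at most 3.21 and 5.18 on the log2 scale, with the filter at 5.80), so 44 were tested.

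Levels are log2 signals from 6 arrays of total RNA of 3 established human cell lines, Mel 290, Mel 270 and 92.1, derived from melanoma of the choroid of the eye. In co-culture each line lay for 64 h below an insert with 0.4 µm pores, which held a fixed number of T cells, taken from healthy volunteers and activated with beads against CD3 and CD28. Alone, each line spent the same 64 h in the same serum-free medium without T cells. For 92.1, 80000 cells were plated, and for Mel 270 and Mel 290 100000. The number of T cells per plated cell therefore differed with the line. There was 1 array per line and condition, so the lines are the replicates (n = 3) and no line has a repeat culture.

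The arrays had medians from 6.63 to 6.69. Of 21 T cell markers with a probe set, 11 were tested and none passed in either direction, at a median change of -0.02. Summed over the 21, their level was higher in co-culture in Mel 290 (128 against 125 alone). It was lower in 92.1 (116 against 117) and in Mel 270 (118 against 120). Of the 11 tested, 9 were higher in Mel 290, 6 in 92.1 and 2 in Mel 270, against 7014, 5507 and 5891 of all 13808 tested genes. On single arrays 9 to 12 of the 21 lay at or above the filter. CD7, CD8A, CD8B, GZMB, LCK, LTB, NKG7, PRF1 and ZAP70 lay above it on all arrays, in co-culture and alone. CD2, CD3D, CD3E, CD3G, CD5, CD247, GZMA, PTPRC and TRAT1 stayed below it on all arrays. IL7R was high in Mel 290 alone of the lines, at 10.43 in co-culture and 9.75 alone. Of 9 melanocyte markers with a probe set, Mel 290 had 3 at or above the filter in co-culture and 4 alone, against 8 or 9 in the other lines. In Mel 290 MLANA, TYR and TYRP1 lay at 5.19 or less in both conditions, while MITF (8.16 in co-culture, 8.96 alone) and SOX10 (7.25 in co-culture, 6.84 alone) lay above the filter. Of the 8 tested, none passed, at a median change of -0.83. In 3 of 3 lines 6 of the 8 were lower in co-culture (25.5% of all tested genes). At an unadjusted limma p under 0.05, 4 of the 8 were lower (13.0% of all tested genes). The summed level of all 9 markers, tested or not, was lower in each co-culture. It was 87.8 in co-culture and 94.5 alone in 92.1, 82.5 and 96.0 in Mel 270, and 51.4 and 53.7 in Mel 290. Its part in the results below was not tested. Fewer cells of a type and less RNA per cell cannot be told apart in such bulk samples.

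The proteasome degrades ubiquitin-tagged proteins. Its barrel-shaped 20S core has outer rings of alpha subunits and inner rings of beta subunits, 3 of which, PSMB5, PSMB6 and PSMB7, carry the active sites. In cells exposed to interferon-gamma PSMB8 takes the place of PSMB5, PSMB9 that of PSMB6 and PSMB10 that of PSMB7, which gives the immunoproteasome, and PSME1 with PSME2 forms the PA28 activator that docks on the core. This form favours peptides that fit MHC class I molecules, which display them to T cells. The 19S cap, made of PSMC ATPases and PSMD subunits, binds and unfolds substrates.

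The promoters of the immunoproteasome genes are shown first because a motif recurs in them close to the gene start. They were read from RefSeq promoter windows of build GRCh38.p14, from 250 bases before a gene's start up to 50 bases from it, of which 100 bases before the start and 30 from it on are printed; 40 of the 46 genes matched, with 49 windows. Capitals mark the core of the interferon-stimulated response element (ISRE), the letters GAAA, any 2 letters and again GAAA, on either strand (on the opposite strand it starts with TTTC). The 4 genes with a match are listed, each read 5′ to 3′ along the gene's strand.
PSMB8 (chr6:32844018-32844147, minus strand): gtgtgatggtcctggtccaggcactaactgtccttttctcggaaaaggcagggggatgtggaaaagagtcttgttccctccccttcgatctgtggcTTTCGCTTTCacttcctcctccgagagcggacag
PSMB10 (chr16:67936821-67936950, minus strand): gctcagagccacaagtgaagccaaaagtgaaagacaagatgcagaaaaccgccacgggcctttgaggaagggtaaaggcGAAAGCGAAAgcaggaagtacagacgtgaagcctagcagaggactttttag
PSME1 (chr14:24136094-24136223, plus strand): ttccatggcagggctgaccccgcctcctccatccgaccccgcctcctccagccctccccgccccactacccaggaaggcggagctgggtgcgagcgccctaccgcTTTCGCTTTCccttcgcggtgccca
PSME2 (chr14:24146581-24146710, minus strand): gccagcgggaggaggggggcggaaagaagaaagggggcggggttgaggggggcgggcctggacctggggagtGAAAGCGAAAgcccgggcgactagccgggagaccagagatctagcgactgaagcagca

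In each of these windows the match has the same letters, with GC between the GAAA blocks. The second PSMB8 window, from another start, and the PSMB9 window had no match. PSMB9 and its neighbour TAP1, a peptide transporter gene, start close together and run in opposite directions. One TAP1 window holds 2 overlapping matches, 354 to 369 bases before the PSMB9 start; 130 bases of it are printed along the TAP1 strand.
TAP1 (chr6:32853755-32853884, minus strand): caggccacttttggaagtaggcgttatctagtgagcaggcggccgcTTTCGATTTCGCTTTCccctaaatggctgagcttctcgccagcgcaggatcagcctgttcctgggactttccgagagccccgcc

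An ISRE core was found in 4 of 6 windows of immunoproteasome genes (66.7%), in 2 of 28 windows of constitutive core and 19S genes (7.14%, PSMA4 and PSMB4), in 1 of 15 windows of the other members (6.67%, PSMG4) and in 3.57% of all 35116 windows. The gamma-activated site core TTCNNNGAA reads the same on both strands. It was in 1 of 6 immunoproteasome windows (16.7%, PSMB8), 5 of 28 constitutive ones (17.9%), 2 of 15 of other members (13.3%) and 7.66% of all. The NF-kappaB core, GGG and CC with any 5 letters between, was in 33.3% of the 6, 57.1% of the 28, 93.3% of the 15 windows of other members and 58.7% of all windows. The antioxidant response element core TGACNNNGC is bound by the NRF1 and NRF2 factors. It was in 3 of 6 (50%), 6 of 28 (21.4%), 5 of 15 windows of other members (33.3%) and 13.3% of all. Both strands were searched, matches of different motifs may overlap, and a match describes these letters only.

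The main comparison asked how proteasome genes differed when the lines shared medium with activated T cells. All 5 immunoproteasome genes were higher in co-culture in 3 of 3 lines (16.2% of all tested genes), by a mean over lines of 1.10 to 3.74 on the log2 scale. In single lines their changes ran from 0.70 to 4.88. PSME2 alone passed the test over all genes, at its edge. The 28 constitutive core and 19S subunits had a median change of 0.02, close to the median of all tested genes (-0.04). PSMB5, PSMB6 and PSMB7 differed by -0.06 to -0.23 without passing.

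PSMB9 had levels of 9.90, 11.03 and 10.53 in co-cultures of 92.1, Mel 270 and Mel 290, against 6.11, 6.16 and 7.99 in the same lines alone. Every co-culture lay above every array alone, and the largest difference, 4.88, was in Mel 270. The mean change was 3.74 ± 1.17 (SD, n = 3 lines), which is 13.3-fold, with a limma adjusted p of 0.057. Leaving out a line gave an adjusted p of 0.018 (Mel 270 left out), 0.049 (Mel 290 left out) and 0.12 (92.1 left out), so the call turned on the line left out.

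PSMB8 had 8.71, 6.58 and 8.57 in co-culture, against 6.18, 5.35 and 7.49 alone, in the same order of lines. The groups overlapped, because the Mel 270 co-culture lay below Mel 290 alone, and Mel 270 alone was under the filter level. The differences were 2.54 in 92.1, 1.24 in Mel 270 and 1.09 in Mel 290. Their mean was 1.62 ± 0.80 (SD, n = 3 lines, 3.07-fold, limma adjusted p = 0.091). With that array raised to the filter level, the difference in Mel 270 was 0.79 and the mean 1.47, so the order of the lines is not settled for this gene. PSMB8 and PSMB9 each have 3 probe sets, with identical values, so these add no independent measurement.

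PSMB10, which encodes the third inducible active-site subunit, had 8.34, 8.03 and 8.15 in co-culture, against 7.54, 7.10 and 6.59 alone. The groups did not overlap, and Mel 290 had the lowest level alone and the largest difference (1.56). Its change was 1.10 ± 0.41 (SD, n = 3 lines, 2.14-fold, limma adjusted p = 0.083).

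The PA28 activator genes had higher levels in co-culture too. PSME2 had 10.69, 10.73 and 10.55 in co-culture, against 9.06, 8.85 and 9.34 alone. No arrays of the groups overlapped, and the 3 co-cultures lay within 0.18 of each other. PSME2 rose by 1.58 ± 0.34 (SD, n = 3 lines, 2.98-fold, limma adjusted p = 0.0499). The call was lost without any 1 of the lines (adjusted p = 0.13 without 92.1, 0.063 without Mel 270 and 0.060 without Mel 290), although the change stayed between 1.42 and 1.76. PSME1 had 10.31, 10.43 and 10.60 in co-culture, against 9.22, 8.57 and 9.90 alone. The groups were apart, and its change was 1.22 ± 0.59 (SD, n = 3 lines, 2.33-fold, limma adjusted p = 0.095).

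**Figure D1:**
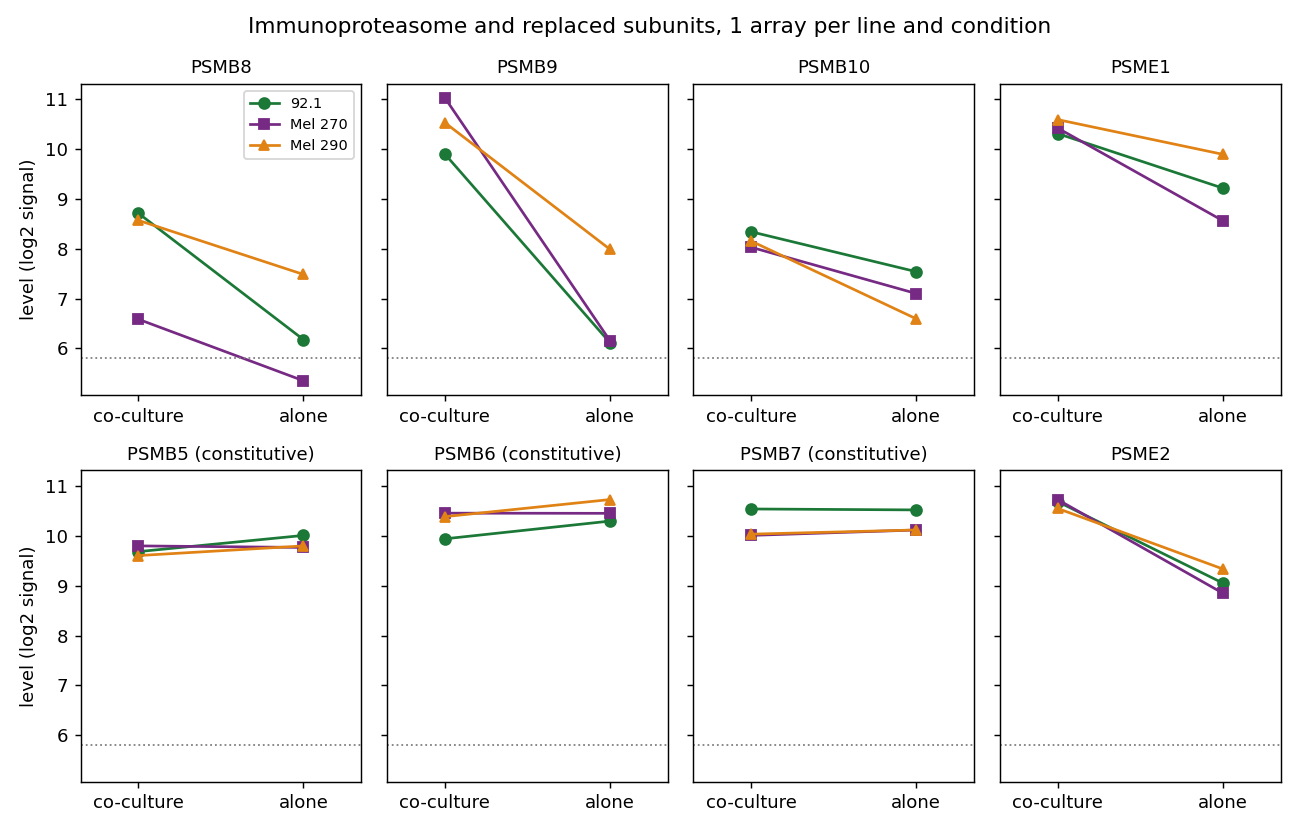
Levels (log2 signal) of the 5 immunoproteasome genes and of PSMB5, PSMB6 and PSMB7, with co-culture on the left and alone on the right of each panel; each line joins the 2 arrays of 1 cell line, and the dotted line is the filter level of 5.80. The immunoproteasome genes lie higher in co-culture in each line, while the 3 constitutive subunits are nearly level.

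The constitutive active-site subunits lay between 9.61 and 10.54 in co-culture and between 9.77 and 10.73 alone. PSMB5 had 9.69, 9.80 and 9.61 in co-culture, against 10.01, 9.77 and 9.80 alone, a change of -0.16 ± 0.18 (SD, n = 3 lines, limma adjusted p = 0.59). PSMB6 differed by -0.23 ± 0.20 (adjusted p = 0.44) and PSMB7 by -0.06 ± 0.07 (adjusted p = 0.86). After cyclic loess PSMB7 had the other sign, at 0.03. In each case the groups overlapped.

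Set against the subunit it replaces, PSMB9 gained 3.97 ± 1.01 on PSMB6, PSMB8 gained 1.78 ± 0.94 on PSMB5 and PSMB10 gained 1.16 ± 0.44 on PSMB7 (differences of log2 changes, SD, n = 3 lines). The gain was positive in every line for the 3 pairs. It ran from 2.89 in Mel 290 to 4.87 in Mel 270 for PSMB9, from 1.204 in Mel 270 to 2.86 in 92.1 for PSMB8, and from 0.78 in 92.1 to 1.65 in Mel 290 for PSMB10. These are differences of changes, not ratios of amounts, since signals of different probe sets are not on a common scale.

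The mean change of the 5 immunoproteasome genes exceeded that of the 28 constitutive core and 19S subunits by 2.11 in 92.1, 2.03 in Mel 270 and 1.31 in Mel 290 (mean 1.81 ± 0.44, SD, n = 3 lines). With 3 pairs an exact two-sided permutation test cannot go below p = 0.25, so these values are a description. In 92.1 the immunoproteasome genes differed by 0.80 to 3.79 and the constitutive ones by -1.10 to 0.69. In Mel 290 the ranges were 0.70 to 2.54 and -0.34 to 0.60. Neither pair of ranges overlapped. In Mel 270 they were 0.93 to 4.88 and -1.002 to 1.09, where PSMA6 (1.09) lay above PSMB10 (0.93).

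**Figure D2:**
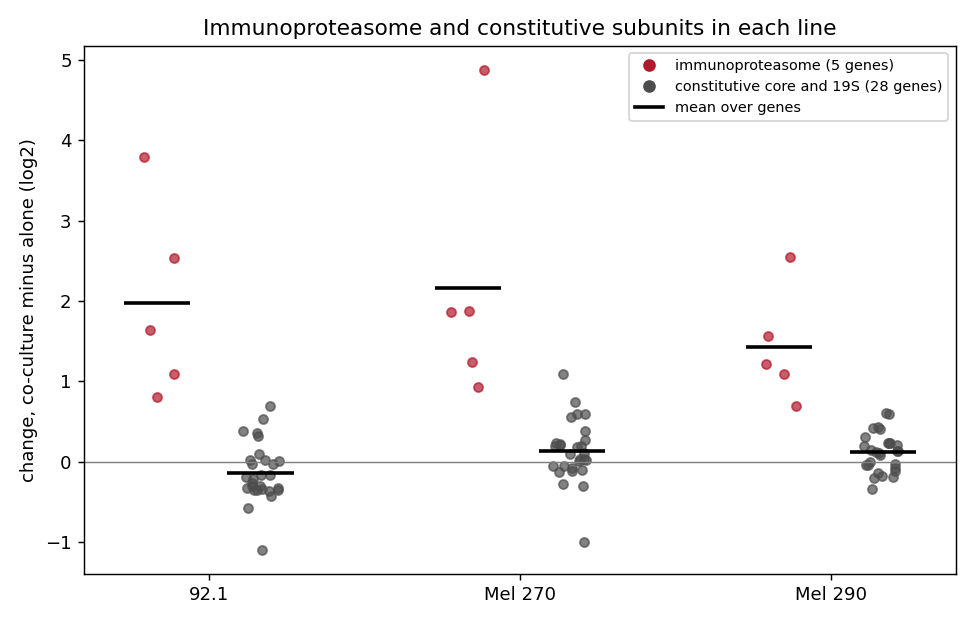
Change (co-culture minus alone, log2) of the 5 immunoproteasome genes (red, left) and the 28 constitutive core and 19S subunits (grey, right) in each line; each point is a gene and each bar the mean over genes. The means are 1.97 and -0.14 in 92.1, 2.16 and 0.13 in Mel 270, and 1.42 and 0.11 in Mel 290.

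Of the 5 immunoproteasome genes, 4 were at least 2-fold higher in each line: PSMB10 fell short in 92.1 and Mel 270, and PSME1 in Mel 290. Over all 44 tested members, 4 were at least 2-fold higher in 92.1 (3.63% of all tested genes), 5 in Mel 270 (5.29%) and 4 in Mel 290 (2.07%). PSMA6 was the fifth in Mel 270. At least 2-fold lower were 1 member in 92.1 (2.71% of all genes), 2 in Mel 270 (4.52%) and 0 in Mel 290 (2.30%): PSMA7 in 92.1 and Mel 270, and PSMG1 in Mel 270.

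Over the 3 lines together, limma called 1 of 44 members higher (PSME2, against 0.413% of all 13808 tested genes) and 0 lower (0.0362%). At an unadjusted p under 0.05, 9 members were higher (7.02% of all genes) and 1 was lower (13.0%). The 9 were the 5 immunoproteasome genes and PSMA3, PSMA4, PSMA5 and PSMA6, and the 1 was PSMG1. Co-culture lay wholly above growth alone for 7 members (4.03% of all genes): PSMB9, PSMB10, PSME1, PSME2, PSMA3, PSMA4 and PSMA6. It lay wholly below for PSMG1 (5.96%). In 3 of 3 lines 11 members were higher (16.2% of all genes) and 6 lower (25.5%).

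Except for PSMB8, the immunoproteasome genes also differed less between lines in co-culture than alone. The gap between the highest and lowest line was 0.18 in co-culture against 0.49 alone for PSME2, 0.28 against 1.33 for PSME1, 0.31 against 0.95 for PSMB10 and 1.13 against 1.88 for PSMB9. For PSMB8 it was about the same, at 2.13 against 2.14, and the gap alone rests on a Mel 270 array under the filter level (5.35). With that array raised to the filter level, the gap of PSMB8 would be wider in co-culture than alone. The gap was narrower in co-culture for 53.6% of the 28 constitutive subunits and 42.2% of all tested genes. These gaps rest on 1 array per line and were not tested.

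In the alpha ring, which gates entry to the core, members differed among themselves. PSMA6 had 10.83, 10.99 and 10.49 in co-culture, against 10.15, 9.91 and 9.89 alone (change 0.79 ± 0.26, SD, n = 3 lines, limma adjusted p = 0.091). PSMA4 had 10.66, 10.50 and 10.59 in co-culture, against 10.13, 9.91 and 9.98 alone (0.57 ± 0.04, adjusted p = 0.10). Neither gene's groups overlapped, and the change of PSMA4 was nearly the same in each line. PSMA5 (0.47 ± 0.23) and PSMA3 (0.45 ± 0.12) were also higher in 3 of 3 lines without passing (limma adjusted p = 0.17 and 0.15), while PSMA2 (0.12 ± 0.14) and PSMA1 (0.08 ± 0.25) had small differences.

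PSMA7, another alpha subunit, had the lowest mean change of the ring. It had 8.84, 8.90 and 9.40 in co-culture, against 9.94, 9.90 and 9.27 alone. It was lower by about 2-fold in 92.1 (-1.10) and Mel 270 (-1.002) and slightly higher in Mel 290 (0.13), with a mean of -0.65 ± 0.69 (SD, n = 3 lines, limma adjusted p = 0.28). A change of at least 2-fold in 1 line with the opposite sign in another was seen for this 1 member and for 5.09% of all tested genes.

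The structural beta subunits and the 19S cap were close to level. PSMB4 (0.12 ± 0.27) and PSMB1 (-0.20 ± 0.13) bounded the 4 structural beta genes, with PSMB2 and PSMB3 between them. Among the ATPases PSMC6 (0.13 ± 0.14) was highest and PSMC2 (-0.17 ± 0.13) lowest, with PSMC1, PSMC3 and PSMC4 between. Second probe sets of PSMC1 and PSMC6 differed by 0.04 and 0.01. Of the 9 non-ATPase subunits PSMD12 (0.10 ± 0.45) was highest and PSMD2, a scaffold of the cap's base, lowest (-0.28 ± 0.27). PSMD1, PSMD3, PSMD4, PSMD6, PSMD8, PSMD11 and the deubiquitinase PSMD14 lay between them. None of these 18 passed, and 23 of the 28 constitutive genes differed by less than 0.3 on the log2 scale.

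The counts of higher and lower genes differed between lines within this small range. In 92.1, 9 of the 28 constitutive genes were higher and 19 lower (median -0.20, against -0.08 for all genes). In Mel 270, 19 were higher and 9 lower (median 0.10, against -0.06), and in Mel 290 17 were higher and 11 lower (median 0.13, against 0.01). Of all 13808 tested genes, 5507 were higher in 92.1, 5891 in Mel 270 and 7014 in Mel 290. The difference between lines rests on 1 array per line and condition and was not tested.

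Other regulators and the assembly chaperones contrasted with PSME1 and PSME2. PSME3, the nuclear relative of the PA28 subunits, differed by -0.26 ± 0.20, PSME4, which encodes the PA200 activator, by 0.18 ± 0.08, and PSMF1, which encodes the regulator PI31, by -0.18 ± 0.17 (SD, n = 3 lines). PSMG1, which pairs with PSMG2 to assemble the alpha ring, had 8.66, 7.83 and 8.27 in co-culture, against 9.28, 9.06 and 8.68 alone. It was lower in 3 of 3 lines without overlap (-0.75 ± 0.42, limma adjusted p = 0.13), whereas PSMG2 differed by -0.05 ± 0.23. PSMD9 had the highest change of the chaperones (0.10 ± 0.18), and PSMD5, PSMD10, PSMG3 and PSMG4 lay between -0.14 and 0.05. PSME3IP1 differed by -0.08 ± 0.23. Below the filter, PSMA8 differed by -0.12 and PSMB11 by -0.11.

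**Figure D3:**
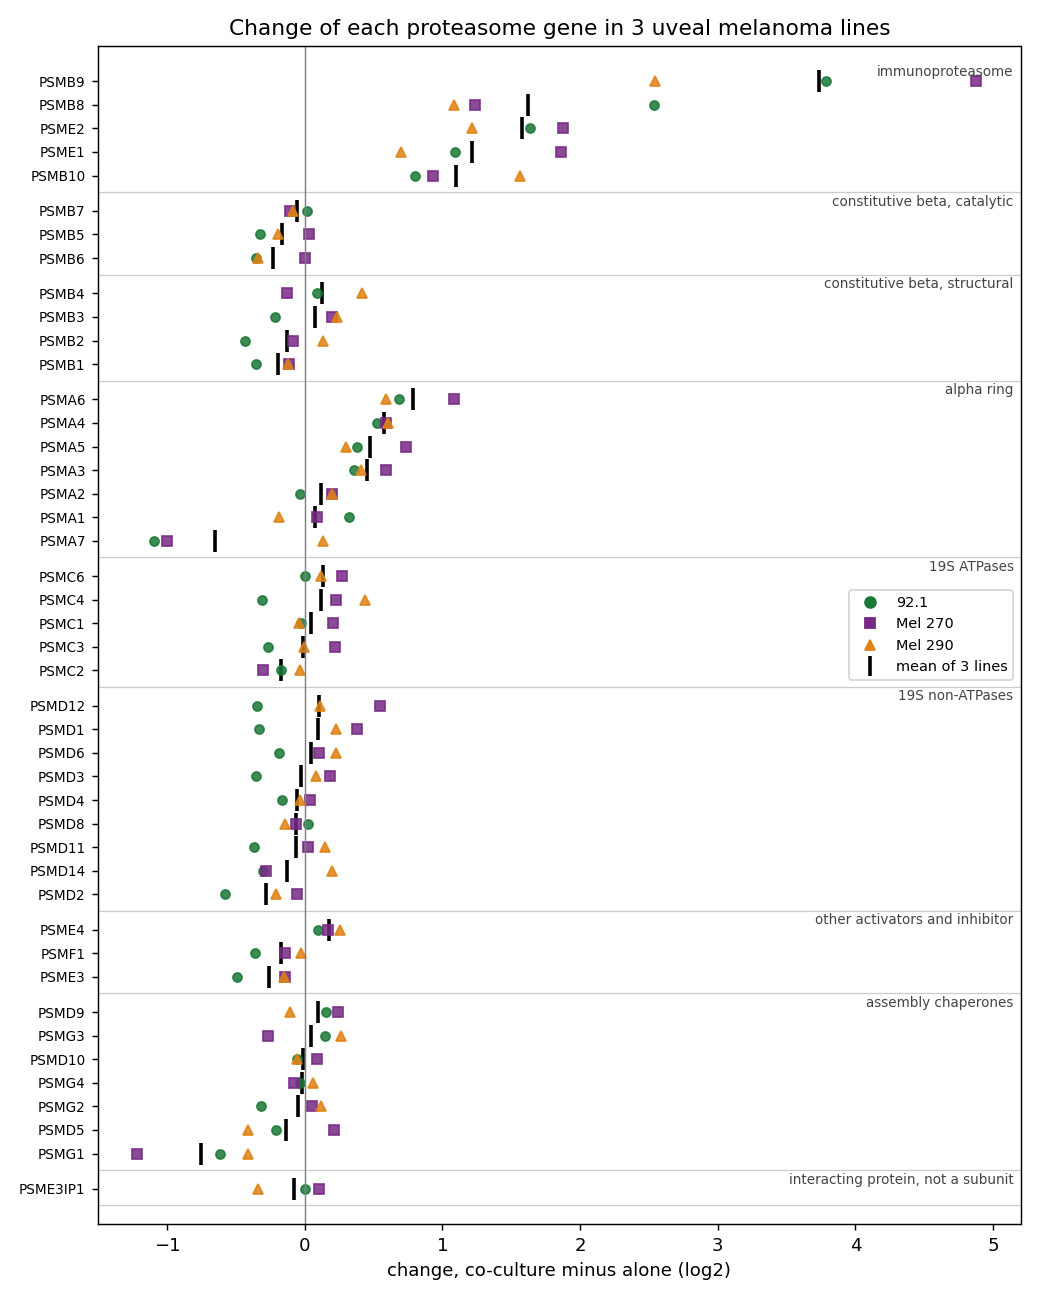
Change (co-culture minus alone, log2) of the 44 tested members, grouped by role, in 92.1 (circles), Mel 270 (squares) and Mel 290 (triangles); black bars are means over the lines. The 5 immunoproteasome genes lie to the right of 0.6 in every line, and PSMA7 separates Mel 290 from the other lines.

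The second comparison asked where the level of a member differed between lines over both conditions, each line set against the mean of the other 2. Its p-values come from arrays without repeat cultures and include unequal responses. In 92.1, 3 of 44 members were higher (9.73% of all tested genes) and 0 lower (6.18%). In Mel 270, 2 were higher (6.83%) and 2 lower (7.62%), and in Mel 290 4 were higher (11.3%) and 4 lower (14.9%). These 15 calls fell on 9 genes.

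The widest difference was that of PSMD5, a chaperone of the cap's base. In Mel 270 it had 3.89 in co-culture and 3.68 alone, both below the filter level. In 92.1 it had 7.62 in co-culture and 7.83 alone, and in Mel 290 it had 9.04 in co-culture and 9.45 alone. As its signal in Mel 270 was under the filter level, the sizes were taken with low values raised to that level, as smaller estimates. Mel 270 minus the mean of the others was then -2.68 (limma adjusted p = 0.0031), against -4.70 as measured (limma adjusted p = 0.0011). Mel 290 minus the mean of the others was 2.48 (limma adjusted p = 0.0016), against 3.49 as measured (limma adjusted p = 9.2e-04). Without the Mel 290 arrays the mean of PSMD5 would lie just below the filter level. The gene was thus tested through the line called higher, and that call is not independent of the filter. The call of 92.1 (1.21, adjusted p = 0.017 as measured) was lost with low values raised (0.20, adjusted p = 0.39). Only 1 probe set measured this gene.

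PSMB8 was lower in Mel 270 (-1.77, limma adjusted p = 0.032) and higher in Mel 290 (1.32, adjusted p = 0.042), and it was the only immunoproteasome gene with such a call. With low values raised neither call held (-1.54, adjusted p = 0.060 in Mel 270, and 1.21, adjusted p = 0.077 in Mel 290). The other differences were below 1 on the log2 scale. In Mel 290 PSMD2 (0.82) and PSMB1 (0.57) were higher and PSME3 (-0.82), PSMD4 (-0.76), PSMG3 (-0.72) and PSMC2 (-0.64) lower. PSMD4 encodes a ubiquitin receptor of the cap. In Mel 270 PSMG3 (0.89) and PSMD4 (0.61) were higher, and in 92.1 PSME3IP1 (0.82) and PSME3 (0.71). Their adjusted p lay between 0.016 and 0.043.

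**Figure D4:**
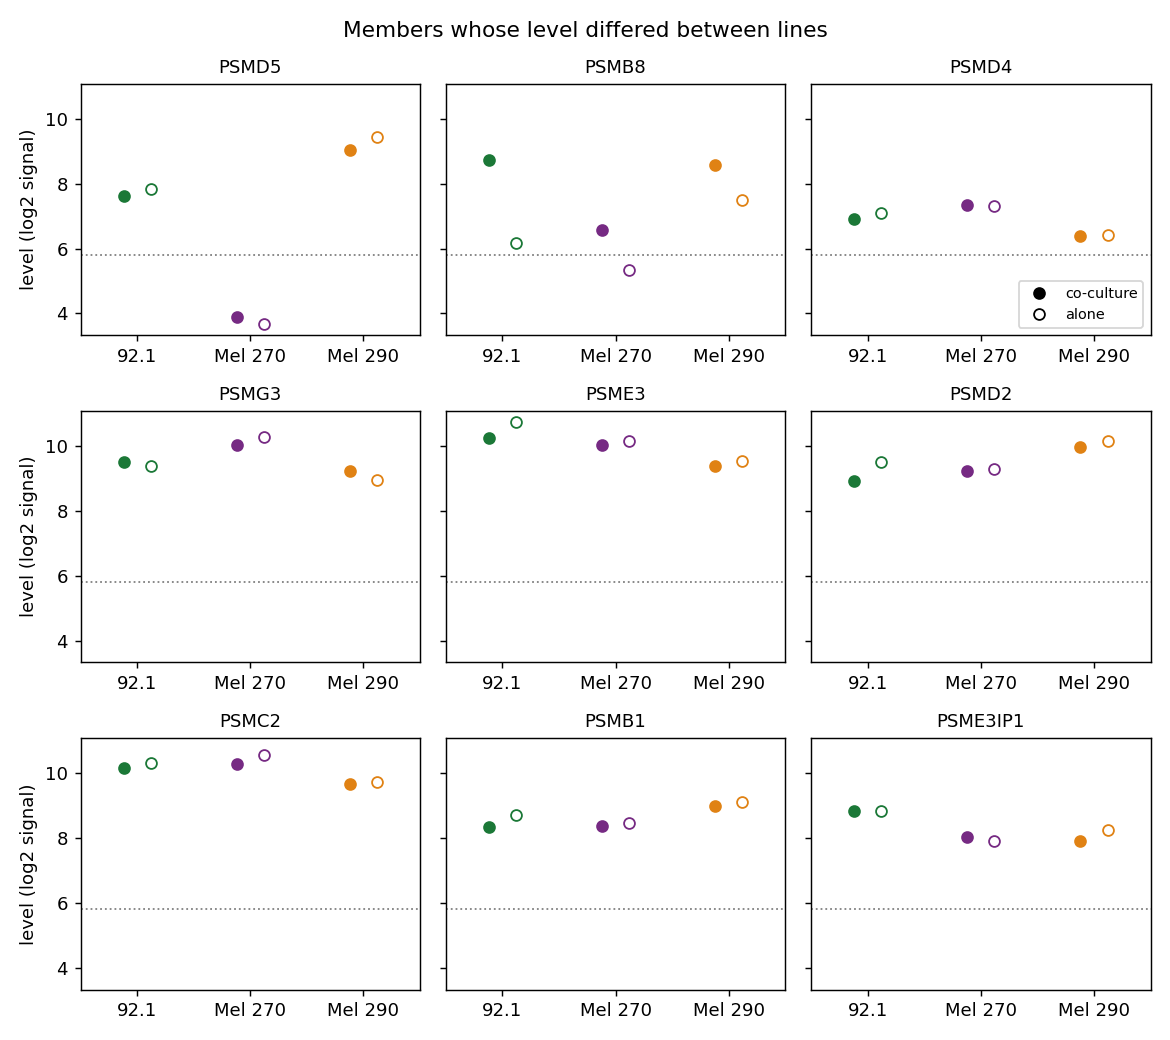
Levels (log2 signal) of the 9 members with a called difference between lines, in co-culture (filled) and alone (open) for each line; the dotted line is the filter level of 5.80. PSMD5 lies below 4 in Mel 270 and above 7 in the other lines in both conditions.

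Genes that act with the proteasome were counted from lists of the same pathway. Of 15 tested partners without a PSM symbol, such as the core maturation factor POMP (0.18 ± 0.15) and the cap subunits ADRM1 (0.01 ± 0.34) and SEM1 (-0.05 ± 0.06), none passed, at a median change of -0.15. UBQLN4 (0.55 ± 0.86) and the cap-bound deubiquitinase UCHL5 (-0.53 ± 0.22) differed most, ahead of the shuttle receptors RAD23B (-0.28 ± 0.14) and UBQLN1 (-0.25 ± 0.17). NFE2L1, which encodes the NRF1 factor that drives constitutive proteasome genes, had 11.40, 11.40 and 11.74 in co-culture, against 10.19, 10.70 and 11.29 alone. Its groups did not overlap (0.79 ± 0.39, limma adjusted p = 0.12). None of the 6 tested genes of that list passed, with MAFF at 1.62 ± 0.69 and NFE2L2 at 0.58 ± 0.07. Among 5 genes for ubiquitin or for enzymes that attach it or ISG15, none passed. UBA7 (2.59 ± 1.05) and UBE2L6 (1.15 ± 0.46), enzymes that attach ISG15, lay ahead of UBA6 (0.41 ± 0.14) and UBB (-0.07 ± 0.05).

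Of 11 tested interferon regulators, 2 rose (against 0.413% of all tested genes) and 0 fell (0.0362%), at a median change of 1.22. IRF1, a factor that binds ISRE-like sites, had 10.79, 10.68 and 10.96 in co-culture, against 5.56, 6.17 and 6.45 alone, and rose by 4.75 ± 0.42 (SD, n = 3 lines, limma adjusted p = 0.0039). JAK2, a kinase of the interferon-gamma receptor, rose by 2.07 ± 0.23 (adjusted p = 0.014), while IRF9 (1.60 ± 0.48) and IRF2 (1.30 ± 0.80) did not pass. Alone in 92.1, IRF1 (5.56) and JAK2 (5.77) lay under the filter level of 5.80. The sizes of their changes in that line are therefore limited by background. NLRC5, an activator of MHC class I genes, had 8.91, 6.19 and 8.35 in co-culture, against 6.33, 6.23 and 7.12 alone. Its difference was -0.04 in Mel 270, 2.58 in 92.1 and 1.22 in Mel 290. Of 14 tested genes of peptide supply to MHC class I, 4 rose (against 0.413% of all tested genes) and 0 fell (0.0362%), at a median change of 0.68: TAP2, TAPBP, ERAP2 and LAP3. TAP2 rose by 2.96 ± 0.74, TAPBP by 1.54 ± 0.27 and ERAP2 by 2.39 ± 0.22 (limma adjusted p = 0.042, 0.042 and 0.0090). Alone, ERAP2 lay under the filter level in Mel 270 (4.42) and Mel 290 (5.71), and above it in 92.1 (6.06). Its mean alone (5.40) was also under that level, so ERAP2 was tested through its co-cultures (mean 7.79). The size of its change is therefore limited by background, and its call is not independent of the filter. LAP3, an aminopeptidase, rose by 2.30 ± 0.06 (adjusted p = 0.0071). TAP1, next to PSMB9, had changes of 5.05 in 92.1, 4.001 in Mel 270 and 2.38 in Mel 290 (mean 3.81 ± 1.34, limma adjusted p = 0.067), and BLMH, a cytosolic peptidase, had the lowest change of the list (-0.80 ± 0.28, adjusted p = 0.092).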

How the data were processed

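The 6 deposited columns hold log2 signals that the authors made with Affymetrix Expression Console 1.2.0.20, per the submitters' processing notes; for the summarization, background correction and normalization, the method is not given in the sources used here. Values ran from 1.49 to 13.9 and were used as deposited. Depth does not apply to arrays, whose number limits the precision. Gene symbols came from the platform annotation (19460 of 33297 probe sets with 1 symbol), updated with RefSeq GRCh38.p14.

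Genes whose mean reached the 25th percentile of listed probe sets (5.80) were tested, 13808 in all, with limma 3.58.1 in R 4.3.3: lmFit and eBayes with cell line as a block, since each line was present in both groups, and Benjamini-Hochberg adjustment over all tested genes at 0.05. That left 2 residual degrees of freedom plus a prior of 3.10. The fit was tested on simulated data. Lines were compared in the same model. P-values for co-culture rest on the spread of the change between lines, moderated toward a variance pooled over all tested genes. Those for lines rest on the same residual spread, which holds the unequal responses of the lines. Members, lists, motifs and alternatives were chosen with earlier results of these data known. Named are the immunoproteasome genes, PSMB5 to PSMB7, members called in either comparison, and each group's highest and lowest; PSMA3 to PSMA6, PSMG1, NLRC5, BLMH, POMP, ADRM1, SEM1, IL7R and other genes that complete a group or pair were also named after their values were seen.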

Additional observations from a re-analysis of the deposited data

Results flagged for a closer look

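PSMA7 was picked out because its change had opposite signs in different lines and reached 2-fold in at least 1 of them. It was -1.10 in 92.1, -1.002 in Mel 270 and 0.13 in Mel 290, each from 1 co-culture array minus 1 array alone, on the log2 scale. The difference between lines was not tested, because no line has a repeat culture.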

How the results depend on the processing

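All 5 immunoproteasome genes kept a positive change under each of the 11 alternatives run on single genes, and none of PSMB5, PSMB6 and PSMB7 was called under any. PSMB7 was -0.06 as reported and 0.027 after cyclic loess; the cause was not tested. The count of members called higher was 1 as reported, 2 with a filter at the median (PSME2 and PSMB9), and 0 after cyclic loess, with low values raised to the filter level, with the mean of probe sets, without a filter, and in the fit with no replicate block. Leaving out a line gave 0 (92.1) to 1 (Mel 270 or Mel 290), and that 1 was PSMB9, not PSME2. The 15 differences between lines became 10 to 15, and 12 with low values raised, without both of PSMB8 and that of PSMD5 in 92.1. PSME2 passed in 3 of its 11 alternatives (adjusted p from 0.035 to 0.13) and PSMB9 in 3 of 11 (0.018 to 0.23). Over all genes 62 were called, 41 after cyclic loess, 18 with no replicate block, and 49 to 85 with a line left out. No member was called lower under any alternative. The immunoproteasome minus constitutive change was 1.81, and 2.30 for PSMB8, PSMB9 and PSMB10 against PSMB5, PSMB6 and PSMB7, which uses fewer genes. Same-line arrays are pairs, as the labels name the line. Levels near 5.80, as for PSMB8 in Mel 270, are limited by background.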
